A study of Mus musculus with 12 samples.

Results

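The comparison is of 3T3-L1 preadipocytes carrying a short hairpin RNA against Fto (shFTO) with 3T3-L1 preadipocytes carrying a scrambled hairpin (shScram), before adipogenic induction. It rests on 4 of the 12 RNA sequencing libraries of the series, 2 of shScram and 2 of shFTO, which were chosen by their sample titles. The other 8 libraries are of the same lines at the mitotic clonal expansion (MCE) and differentiation (Diff) stages and are used for the error estimate and for 1 comparison between stages. 3T3-L1 is an established mouse embryo fibroblast line that turns into adipocytes in culture. Both lines had received a lentiviral vector that drives the hairpin from a U6 promoter and also encodes TagRFP and puromycin resistance, and both were selected with puromycin. Whether the shFTO libraries are of 1 selected line or carry 1 hairpin is not given in the sources used here. Whether the replicate libraries came from separate cultures is not given in the sources used here, and the p-values then measure the spread between libraries, which may be technical. The values are TPM, the level of a transcript per length as a share of its library. TPM keep no record of read depth, so the depth behind each value is unknown.

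FTO is a demethylase that removes the methyl group from N6-methyladenosine, the most abundant internal modification of messenger RNA. The Fto gene was named through its association with fat mass, and FTO has been studied in 3T3-L1 cells for its part in adipogenesis. Confluent preadipocytes are growth-arrested fibroblasts that re-enter the cell cycle for the clonal expansion once hormones are added, and only then switch on the adipocyte programme through C/EBP factors and PPARγ. The question of the comparison is which transcripts already differ between the lines before that switch.

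The methods of the study list 2 hairpins against Fto and do not name the hairpin of the sequenced line. Their target sites are shown because they define the perturbation. Each target was found in the Fto-201 transcript of GENCODE M21 (GRCm38), and in no transcript of another gene, with the 21 bases of the target in capitals and 4 flanking bases on either side in lower case.
shFto-1: agtgGCTGAGGCAGTTCTGGTTTCAaggc
shFto-4: ttggGACATCGAGACACCAGGATTAacaa
The shFto-1 target is at chr8:91485173-91485193, on the plus strand, in coding sequence of exon 7. The shFto-4 target is at chr8:91441746-91441766, on the plus strand, in coding sequence of exon 4.

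Fto was at 52.7 and 58.3 TPM in the shScram and 5.51 and 5.55 TPM in the shFTO libraries. Every shFTO library was far below every shScram library, and the shFTO mean was 10.0% of the shScram mean (log2 fold change -3.11 ± 0.11, limma adjusted p = 3.64e-06). Here and below, a log2 fold change is shFTO minus shScram on the log2(TPM + 1) scale with its standard error, and understates the change of genes near 0. The cells carried the expected fibroblast markers in all 4 libraries: the 7 markers Pdgfra, Pdgfrb, Thy1, Vim, Col1a1, Col1a2 and Col3a1 summed to 8232 and 11443 TPM in the controls and to 8775 and 8812 TPM in shFTO. All 7 endothelial, 7 epithelial and 7 skeletal myoblast markers were below 1 TPM in each library. Of 9 macrophage markers, Adgre1 and Tyrobp were listed at 0 in the 4 libraries, while the sum of the list was 8.87 and 20.0 TPM in the controls against 29.9 and 32.2 TPM in shFTO, with Cd14 alone at 3.37 and 11.6 TPM against 18.6 and 22.4 TPM. Whether other cells had a part in any difference was not tested, and in these bulk libraries fewer cells of a type and less RNA per cell cannot be told apart.

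The control libraries differed from each other. Of the 14295 genes tested, those with at least 1 TPM in at least 2 of the 4 libraries, 3045 (21.3%) were more than 2-fold apart between shScram replicate 1 and replicate 2, against 161 (1.13%) between the shFTO replicates. Replicate 1 was the lower in 2568 of the 3045 genes. Their correlation on the log2 scale was 0.925, whereas the other 5 pairs of replicates lay between 0.990 and 0.994. The difference followed the GC content of the transcripts: across genes, Spearman's rho between GC content and the difference of replicate 1 from replicate 2 was -0.74, against -0.23 to 0.41 in the other pairs (a description, since genes are not independent replicates). Genes under 40% GC were at a median of 0.65 higher in replicate 1 and genes at 60% GC or more fell by 1.48 there, on the log2 scale. Among genes at a mean of 5 TPM or more, Gm23935, annotated as a miRNA gene, had the widest gap, with 61.7 and 4884 TPM in the shScram libraries and 4548 and 5065 TPM in the shFTO libraries. Scand1, a SCAN-domain protein gene, had 2.93 and 147 TPM in the control and 239 and 241 TPM in the knockdown libraries. At the other end, Gm20716 was at 59.8 and 5.82 TPM against 16.9 and 15.0 TPM and Rpl36-ps2, a ribosomal protein pseudogene, at 25.0 and 1.58 TPM against 0.563 and 1.54 TPM. In these genes shScram replicate 2 was nearer to the shFTO libraries than to its own partner. The level in each control library is therefore given below for most genes named. The log2 fold change against each control library is given only for some genes and lists.

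**Figure D1:**
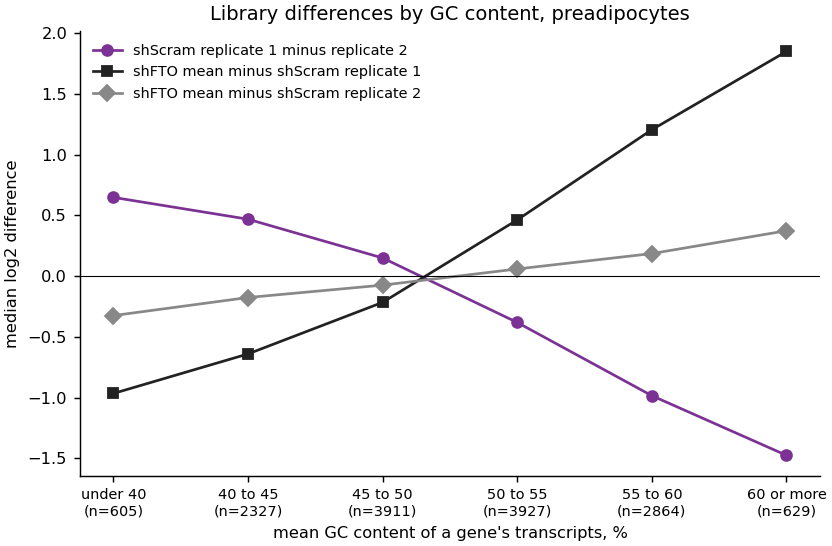
Median log2 difference (vertical axis, log2(TPM + 1) scale) of genes in 6 classes of transcript GC content in percent (horizontal axis, number of genes in brackets), for shScram replicate 1 minus replicate 2 (circles) and for the shFTO mean minus each shScram library (squares and diamonds). The difference from replicate 1 climbs from -0.97 to 1.85 across the classes, and that from replicate 2 from -0.33 to 0.37.

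limma called 1997 genes different between the lines (14.0% of all tested, at an adjusted p under 0.05 and a fold over 2), 1362 higher in shFTO (9.53% of all tested) and 635 lower (4.44%). The spread in that test is estimated over all 12 libraries and does not carry the disagreement of the control pair in full. A stricter description was therefore used to choose what to report: a gene counts as separated when both shFTO libraries are at least 2-fold above, or at least 2-fold below, both shScram libraries. That alone held for 430 genes higher (3.01%) and 210 lower (1.47%). Of the genes called, 428 were separated and higher in shFTO (2.99% of all tested) and 209 were separated and lower (1.46%). Against each control library taken alone, 511 genes were called higher both times (3.57%) and 284 lower (1.99%), and these held 629 of the 637 genes called and separated (4.46%). Most calls therefore rested on the distance from replicate 1: with only replicate 1 as control 3416 genes were called higher and 1447 lower, and with only replicate 2 the numbers were 609 and 436. Under quantile normalization, 1118 genes were called higher and 988 lower, which moved the share of higher genes among those called from 68.2% to 53.1%. Without shFTO replicate 1, 587 genes were called higher and 306 lower, and without shFTO replicate 2, 605 and 519.

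A fit to the 4 preadipocyte libraries alone called no gene, its smallest adjusted p being 0.0690, although 2755 genes had an unadjusted p under 0.05. With weights that let each group have its own spread, 252 genes were called higher and 57 lower, and 212 of the 637 separated genes remained called. The separated genes still differed in composition: the median GC content of the transcripts was 54.9% for the higher and 45.8% for the lower genes, against 50.3% over all tested. The change against GC content had a Spearman's rho of 0.72 across genes with replicate 1 as control and of 0.32 with replicate 2. After a correction for GC content, 346 of the 428 higher and 160 of the 209 lower genes kept their call. The median log2 fold change of all genes tested was 0.10, 0.17 against replicate 1 and -0.00 against replicate 2, and became -0.04 under quantile normalization, and list medians below are to be read against it. Protein-coding genes made up 90.7% of the separated higher genes and 66.5% of the lower ones, against 82.2% of all tested. Exons of 204 of the 637 genes (32.0%, against 36.7% of all tested) overlap another gene, and since the strand setting of the counting is not given, reads of such a pair cannot be assigned with certainty.

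**Figure D2:**
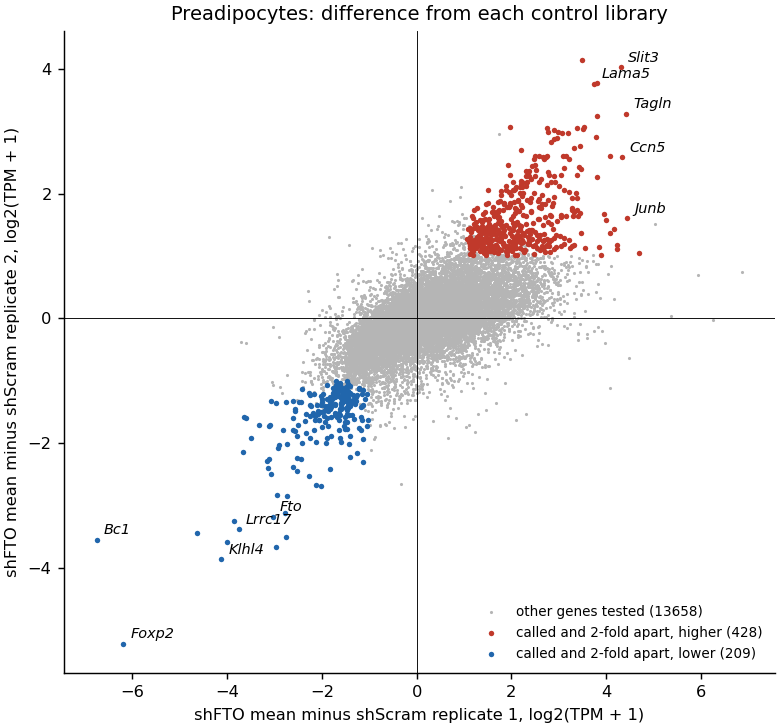
Difference of the shFTO mean from shScram replicate 1 (horizontal axis) and from shScram replicate 2 (vertical axis), in log2(TPM + 1), for 14295 genes. Points are genes; the 428 higher (red) and 209 lower (blue) genes were called and were at least 2-fold apart in all 4 pairs of libraries, and the grey cloud is stretched along the horizontal axis, that is, along the difference from replicate 1.

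The 12 genes that fell furthest included several that stood below 1 TPM in shFTO. Foxp2, a forkhead transcription factor best known from the developing brain, was at 81.3 and 41.0 TPM in the shScram and 0.124 and 0.128 TPM in the shFTO libraries. It had the lowest log2 fold change of the separated genes at a mean of 5 TPM or more (-5.71 ± 0.28, limma adjusted p = 1.36e-05), and each shFTO library was below each shScram library by a wide margin. Here and below, the levels of the shScram libraries stand before those of the shFTO libraries, replicate 1 first. Klhl4, a kelch-repeat protein, stood at 27.2 and 22.5 TPM against 0.475 and 0.764 TPM (log2 fold change -4.0 ± 0.17, adjusted p = 6.95e-06). Sis, the intestinal disaccharidase sucrase-isomaltase, was at 29.3 and 12.2 TPM against 0.253 and 0.170 TPM (log2 fold change -4.05 ± 0.32, adjusted p = 0.000124). For these 3 genes the shFTO libraries did not reach 1 TPM.

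Slc4a10, a sodium-dependent bicarbonate transporter, was at 25.1 and 18.6 TPM against 0.349 and 0.942 TPM (log2 fold change -3.80 ± 0.28, adjusted p = 8.83e-05). Lrrc17, a secreted leucine-rich repeat protein, was at 65.3 and 50.2 TPM against 3.91 and 3.87 TPM (log2 fold change -3.57 ± 0.18, adjusted p = 1.47e-05), and its exons overlap those of Fbxl13 on the other strand. Abi3bp, an extracellular matrix protein, was at 33.0 and 21.4 TPM against 1.62 and 1.10 TPM (log2 fold change -3.56 ± 0.23, adjusted p = 4.82e-05). Lmcd1, a LIM-domain regulator of transcription, was at 12 and 20.8 TPM against 0.915 and 0.907 TPM (log2 fold change -3.14 ± 0.26, adjusted p = 0.000172). In these 4 genes the difference from replicate 1 and that from replicate 2 lay within 1 log2 unit of each other, the widest being Lmcd1 at -2.77 and -3.51. Bc1, a short neuronal RNA made by RNA polymerase III, was as low in shFTO but unequal in the controls, with 488 and 52.0 TPM in the control and 2.58 and 4.72 TPM in the knockdown libraries (log2 fold change -5.15 ± 0.80, adjusted p = 0.00294), and its sequence is shared with dispersed ID repeats. The remaining genes of the 12 lowest, beside Fto, were the mitochondrial methionine tRNA mt-Tm at 297 and 378 TPM against 37.2 and 48.9 TPM, Gm14412 at 19.1 and 5.97 TPM against 0.350 and 0.833 TPM and Gm28037 at 33.2 and 55.1 TPM against 3.32 and 3.46 TPM, the last of which shares exons with Rpl24 and Zbtb11.

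The genes that rose furthest included secreted signals, matrix proteins and cell surface proteins. Slit3, a secreted guidance ligand of Robo receptors, was at 0.651 and 1.01 TPM in the shScram and 31.6 and 32.0 TPM in the shFTO libraries (log2 fold change 4.17 ± 0.14, adjusted p = 3.64e-06). Inhbb, the βB subunit of activin and inhibin, was listed at 0 in shScram replicate 1, at 0.0244 TPM in replicate 2 and at 12 and 14.2 TPM in shFTO (log2 fold change 3.80 ± 0.15, adjusted p = 5.85e-06). Lama5, the α5 chain of basement membrane laminins, was at 0.251 and 0.230 TPM against 15.5 and 16.1 TPM (log2 fold change 3.76 ± 0.14, adjusted p = 3.64e-06). These 3 genes were near or below 1 TPM in both control libraries, where the log2(TPM + 1) scale narrows the difference.

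Ccn5, a secreted matricellular protein known to hold back preadipocyte commitment, was the most abundant of the 12 highest genes in shFTO. Its values were 27.6 and 94.4 TPM in the control and 572 and 576 TPM in the knockdown libraries (log2 fold change 3.46 ± 0.43, adjusted p = 0.00108), and the control libraries differed from each other by more than 3-fold. Tagln, the actin-binding protein transgelin of smooth muscle, was at 3.65 and 9.20 TPM against 98 and 98.8 TPM (log2 fold change 3.85 ± 0.32, adjusted p = 0.000169), and overlaps Pcsk7 on the other strand. Saa3, an acute phase protein that adipocytes and macrophages make, was at 2.08 and 0.952 TPM against 42.1 and 26.6 TPM (log2 fold change 3.81 ± 0.26, adjusted p = 6.26e-05). Timp3, a matrix-bound inhibitor of metalloproteinases that overlaps Syn3 on the other strand, was at 3.18 and 5.18 TPM against 53.4 and 62.7 TPM (log2 fold change 3.53 ± 0.19, adjusted p = 1.85e-05). All of these had shFTO libraries above both controls by at least 2-fold, as the choice of genes requires.

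Klf2, a Krüppel-like factor known to repress the Pparg promoter in preadipocytes, was at 2.64 and 9.15 TPM against 61.0 and 61.4 TPM (log2 fold change 3.35 ± 0.38, adjusted p = 0.000703). Pmepa1, a TGF-β-induced membrane protein that dampens SMAD signalling, was at 7.67 and 11 TPM against 92.2 and 104 TPM (log2 fold change 3.28 ± 0.17, adjusted p = 1.47e-05). H2-Q4, a nonclassical class I histocompatibility gene, was at 13.6 and 25.8 TPM against 196 and 206 TPM (log2 fold change 3.36 ± 0.24, adjusted p = 7.05e-05), and near-identical H2 genes can share its reads. The list closes with the sorting receptor Sorcs2 at 2.25 and 3.44 TPM against 37.9 and 35.0 TPM and Prr5, a subunit of mTOR complex 2, at 0.897 and 2.05 TPM against 19.7 and 20.1 TPM.

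**Figure D3:**
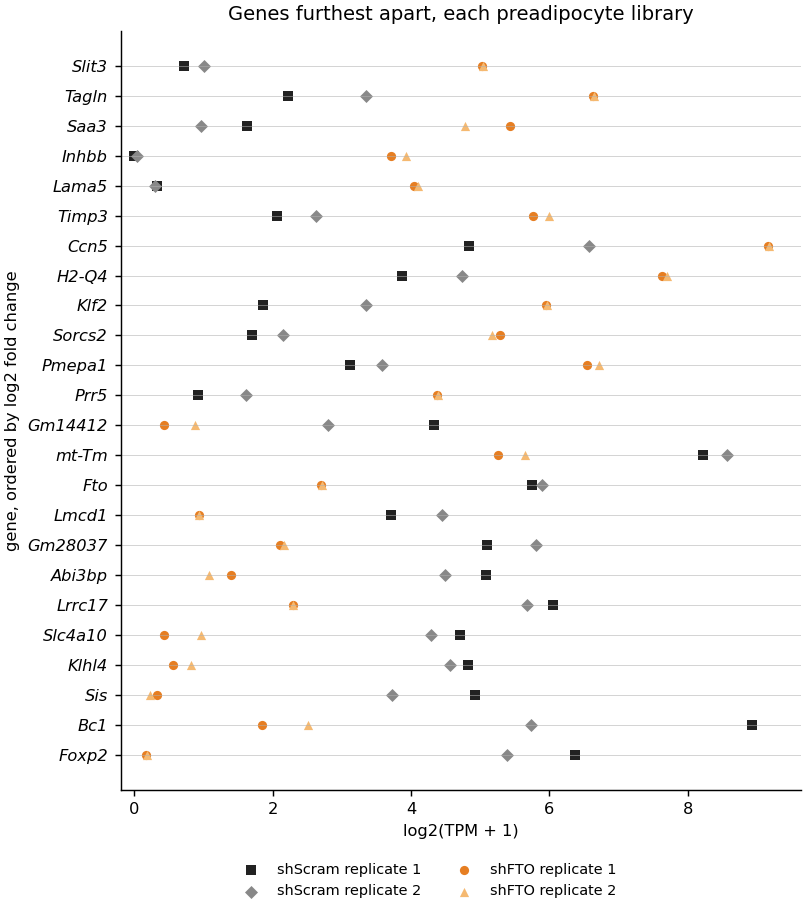
Level of the 12 highest and 12 lowest genes (vertical axis, ordered by log2 fold change) in each of the 4 preadipocyte libraries, in log2(TPM + 1) (horizontal axis). The shFTO libraries (circles and triangles) lie close together, and the shScram libraries (squares and diamonds) differ most in Bc1, at 488 and 52.0 TPM.

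Gene lists were then read by the number of their members that were called and that were separated. Contractile and smooth muscle genes, many of them targets of serum response factor and YAP, had 8 of 16 measured members called higher and none lower, and 6 of them separated, with a median log2 fold change of 1.05. Over all genes tested, 9.53% were called higher and 4.44% lower, and 2.99% and 1.46% were also separated. Each later count is to be read against these shares. A gene under 1 TPM in both libraries of 1 line passed the filter only through the other line. Its place in a count is then not independent of its direction. Ccn2, the matricellular connective tissue growth factor, was at 1.80 and 1.85 TPM against 19.4 and 20.3 TPM (log2 fold change 2.88 ± 0.16, adjusted p = 1.85e-05). Actg2, smooth muscle γ-actin, was at 1.72 and 3.27 TPM against 23.1 and 25.2 TPM (log2 fold change 2.88 ± 0.26, adjusted p = 0.000213). The SRF and YAP target Ankrd1 was at 13.0 and 12.3 TPM against 40.4 and 38.5 TPM (log2 fold change 1.56 ± 0.16, adjusted p = 0.000465). All 3 were far above both controls in both shFTO libraries. Ccn1, a matricellular protein related to Ccn2, was at 35.1 and 72.7 TPM against 166 and 177 TPM (log2 fold change 1.74 ± 0.27, adjusted p = 0.00302). Myl9 and Des were called higher but not separated, with log2 fold changes of 1.44 and 1.21. Of the abundant members, Acta2 was called and separated, at 307 and 453 TPM against 1049 and 959 TPM (log2 fold change 1.43 ± 0.21, adjusted p = 0.00224). Tpm1 at 689 and 717 TPM against 628 and 661 TPM and Myh9 at 311 and 383 TPM against 362 and 389 TPM were not called, and neither was Flna, which lay between the control values.

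The TGF-β and BMP list moved in both directions, 7 of 24 members being called higher and 4 lower, with 5 and 3 of them separated and a median of 0.21. Among ligands, Tgfb1 was at 7.69 and 16.0 TPM against 48.6 and 52.9 TPM (log2 fold change 2.09 ± 0.26, adjusted p = 0.00116). Inhba, the βA subunit of activin, was at 6.25 and 5.63 TPM against 22.0 and 24.9 TPM (log2 fold change 1.82 ± 0.15, adjusted p = 0.000153). The inhibitory SMAD genes Smad7 and Smad6 were also higher, and whether the ligands had a part in this was not tested. Smad7 was at 1.75 and 7.46 TPM against 16.8 and 19.2 TPM (log2 fold change 1.97 ± 0.41, adjusted p = 0.0100). Smad6 was at 2.30 and 7.80 TPM against 17.0 and 19.5 TPM (log2 fold change 1.83 ± 0.37, adjusted p = 0.00926). Tgfbr3, the co-receptor betaglycan, was lower, at 101 and 97.0 TPM against 31.4 and 33.5 TPM (log2 fold change -1.58 ± 0.12, adjusted p = 0.000101). Ltbp2 and Bmp1 were called higher without being separated, whereas the binding proteins Fstl1 and Grem1 passed neither fold threshold, at 0.61 and -0.52.

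Immediate early and AP-1 genes, which growth factors and stress switch on within minutes, were the list with the highest median, 1.33, and 1.75 or 0.90 against either control. Of 28 members 19 were called higher and none lower, and 9 were separated. Junb was at 7.79 and 61.8 TPM against 179 and 204 TPM (log2 fold change 3.03 ± 0.69, adjusted p = 0.0137), with the control libraries far apart, and overlaps Prdx2 on the other strand. Dusp1, a phosphatase that turns off MAP kinases, was at 16.7 and 31.6 TPM against 144 and 139 TPM (log2 fold change 2.57 ± 0.24, adjusted p = 0.000270). Dusp4, of the same family, was at 4.2 and 7.17 TPM against 29.6 and 33.2 TPM (log2 fold change 2.31 ± 0.22, adjusted p = 0.000302). Both control libraries were low for these phosphatases. Ier2, a nuclear early response protein, was at 10.5 and 48.7 TPM against 117 and 137 TPM (log2 fold change 2.42 ± 0.52, adjusted p = 0.0110). The ETS factor Etv4, a readout of FGF and ERK signalling, was at 3.61 and 9.59 TPM against 32.4 and 31.7 TPM (log2 fold change 2.24 ± 0.32, adjusted p = 0.00207). Jund was called but not separated, at 26 and 186 TPM against 343 and 366 TPM, shScram replicate 1 being the library that stood apart. Myc and Klf6 did not pass the fold threshold, at 0.53 and -0.36.

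Among fibrillar and interstitial matrix genes, 7 of 31 were called higher and 2 lower, with 4 and 1 separated, and the median of 0.57 was 0.57 and 0.56 against the control libraries. The fibril-associated collagen Col12a1 was at 2.67 and 2.61 TPM against 19.5 and 22.4 TPM (log2 fold change 2.59 ± 0.14, adjusted p = 1.65e-05). Fbn1, the microfibril protein fibrillin, was at 38 and 41.6 TPM against 139.9 and 152 TPM (log2 fold change 1.85 ± 0.13, adjusted p = 7.13e-05). Tnc, the adhesion-modulating glycoprotein tenascin C, was at 25.2 and 27.1 TPM against 85.8 and 84.4 TPM (log2 fold change 1.66 ± 0.13, adjusted p = 0.000107). All 3 had control libraries close to each other. Col5a1, a chain of the fibril-nucleating collagen V, was at 79.5 and 268 TPM against 545 and 582 TPM (log2 fold change 1.94 ± 0.43, adjusted p = 0.0122). Fmod, the collagen-binding proteoglycan fibromodulin, was lower, at 8.09 and 15.9 TPM against 2.78 and 2.76 TPM (log2 fold change -1.71 ± 0.26, adjusted p = 0.00274). Of the abundant members, Sparc was called higher but not separated, at 1236 and 1536 TPM against 2929 and 2909 TPM (log2 fold change 1.08 ± 0.14, adjusted p = 0.00116). Bgn at 2532 and 2553 TPM against 3797 and 3731 TPM was not called (log2 fold change 0.57). Fn1 at 1732 and 1765 TPM against 1772 and 1944 TPM and Col1a2 at 2311 and 4129 TPM against 2548 and 2589 TPM were not called either.

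In the basement membrane list 4 of 13 members were called higher and none lower, of which Lama5 and Nid2 were separated. Nid2 was at 0.863 and 1.17 TPM against 4.56 and 5.07 TPM (log2 fold change 1.53 ± 0.14, adjusted p = 0.000269), while Nid1 was at 150.0 and 153 TPM against 150.3 and 168 TPM and was not called. The type IV collagens Col4a1 and Col4a2 were called but not separated, at 1.56 and 1.74. Of 20 matrix proteases and their inhibitors 7 were called higher and none lower, and 3 were separated, among them Mmp11 and Timp3. The metalloproteinase Mmp11 was at 16.2 and 49.3 TPM against 167 and 168 TPM (log2 fold change 2.52 ± 0.38, adjusted p = 0.00272). Of 15 integrins and adhesion genes 4 were called higher and 1 lower. Itga7, a laminin receptor subunit, was at 1.79 and 4.04 TPM against 16.2 and 16.5 TPM (log2 fold change 2.21 ± 0.26, adjusted p = 0.000792). Itgb3 was at 7.77 and 10.1 TPM against 28.8 and 30.5 TPM (log2 fold change 1.63 ± 0.14, adjusted p = 0.000179). T-cadherin, Cdh13, was at 42.4 and 43.6 TPM against 16.3 and 17.5 TPM, lower in shFTO (log2 fold change -1.30 ± 0.14, adjusted p = 0.000538).

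In the class I antigen presentation pathway, 8 of 16 genes were called higher and none lower. Of these 3 were separated, and the median was 1.15, or 0.78 after the GC correction. Beside H2-Q4, H2-D1 was at 391 and 879 TPM against 2062 and 1976 TPM (log2 fold change 1.78 ± 0.30, adjusted p = 0.00421). The immunoproteasome subunit Psmb8 was at 3.34 and 5.59 TPM against 33.3 and 29.5 TPM (log2 fold change 2.60 ± 0.29, adjusted p = 0.000704). The peptide transporters Tap1 and Tap2 were called but not separated, at 1.60 and 1.36, and the light chain B2m at 4459 and 2678 TPM against 4004 and 3979 TPM was not called. Interferon-stimulated genes, which share upstream factors with these, had 6 of 31 members called higher and 2 lower, and a median of 0.20. Rsad2, the antiviral enzyme viperin, was at 17.6 and 15.6 TPM against 69.0 and 81.2 TPM (log2 fold change 2.11 ± 0.18, adjusted p = 0.000173). Oas2, an oligoadenylate synthetase, was at 51.4 and 55 TPM against 122 and 129 TPM (log2 fold change 1.22 ± 0.15, adjusted p = 0.00115). Gbp2, a guanylate-binding protein, went the other way, at 107 and 77.2 TPM against 30.2 and 33.4 TPM (log2 fold change -1.49 ± 0.17, adjusted p = 0.000656). The abundant members varied. Bst2 was called higher but not separated, at 339 and 1366 TPM against 2348 and 2276 TPM (log2 fold change 1.76 ± 0.49, adjusted p = 0.0276). Isg15, Ifit3 and Oasl2 had log2 fold changes of 0.96, -0.08 and -0.12 and were not called.

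Of 24 chemokine, cytokine and acute phase genes 9 were called higher and 1 lower, and 6 higher genes were separated. Hp, haptoglobin, was listed at 0 in shScram replicate 1, at 0.254 TPM in replicate 2 and at 10.5 and 8.50 TPM in shFTO (log2 fold change 3.22 ± 0.16, adjusted p = 1.47e-05). The chemokine Ccl5 was at 13.7 and 33.1 TPM against 109 and 89.9 TPM (log2 fold change 2.16 ± 0.42, adjusted p = 0.00754). The chemokine Cxcl10 was at 24.6 and 21.2 TPM against 86.9 and 87.0 TPM (log2 fold change 1.88 ± 0.17, adjusted p = 0.000213). Il11, a fibroblast cytokine that TGF-β induces, was at 0.533 and 0.616 TPM against 5.29 and 6.75 TPM (log2 fold change 2.15 ± 0.20, adjusted p = 0.000247). Ccl2 and Ccl7, the most abundant chemokines here, did not pass the fold threshold, at 0.94 and 0.45. In the complement list, 2 of 13 members were called higher and 1 lower, all separated. C4b was at 0 and 0.162 TPM against 4.42 and 4.92 TPM (log2 fold change 2.39 ± 0.15, adjusted p = 3.3e-05). Serping1, the C1 inhibitor, was at 0.165 and 0 TPM against 6.47 and 7.42 TPM (log2 fold change 2.88 ± 0.18, adjusted p = 3.3e-05). Both were listed at 0 in a control library and passed the filter only through the shFTO libraries. Their place in this count is therefore not independent of their direction.

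In the Notch pathway 4 of the 7 measured genes were called higher and none lower. The median was 1.25, or 1.32 against shScram replicate 1, 0.73 against replicate 2 and 0.66 after the GC correction. At MCE and Diff it was -0.09 and -0.13. Of the genes called, Notch3 passed the filter only through the shFTO libraries. The receptor Notch3 was at 0.0779 and 0.276 TPM against 4.08 and 4.21 TPM (log2 fold change 2.13 ± 0.16, adjusted p = 8.82e-05). The ligand Jag1 was at 15.3 and 15.1 TPM against 36.5 and 43.3 TPM (log2 fold change 1.33 ± 0.12, adjusted p = 0.000270). The target Hes1, a repressor of transcription, was at 7.73 and 10.7 TPM against 58.1 and 59.7 TPM (log2 fold change 2.57 ± 0.15, adjusted p = 2.73e-05). Notch2 at 21 and 34.8 TPM against 24.5 and 27.7 TPM was not called. In the Wnt list 5 of 13 were called higher and 2 lower. Of those higher, the receptor Fzd2 was at 7.32 and 68.2 TPM against 152 and 158 TPM (log2 fold change 2.70 ± 0.73, adjusted p = 0.0254). Its relative Fzd7 was at 7.68 and 8.76 TPM against 21.7 and 24.6 TPM (log2 fold change 1.39 ± 0.13, adjusted p = 0.000249). The nuclear partner of β-catenin, Lef1, was at 1.46 and 1.41 TPM against 4.22 and 4.88 TPM (log2 fold change 1.19 ± 0.16, adjusted p = 0.00159). Of those lower, the secreted modulator Sfrp2 was at 22.7 and 36.4 TPM against 5.27 and 4.37 TPM (log2 fold change -2.36 ± 0.23, adjusted p = 0.000311). Rspo3, a secreted enhancer of Wnt signalling, was at 7.63 and 3.97 TPM against 0.650 and 0.402 TPM (log2 fold change -2.11 ± 0.27, adjusted p = 0.00115).

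The IGF list had 5 of 12 members called higher and none lower. All 5 but H19 were binding proteins, and H19 and Igfbp3 passed the filter only through the shFTO libraries. Igfbp7, the most abundant, was at 424 and 516 TPM against 1458 and 1449 TPM (log2 fold change 1.63 ± 0.13, adjusted p = 0.000118). Igfbp4 was at 35.6 and 77.0 TPM against 244 and 236 TPM (log2 fold change 2.17 ± 0.28, adjusted p = 0.00130), with Igfbp5 at 3.48 and 2.69 TPM against 8.44 and 9.42 TPM (log2 fold change 1.29 ± 0.13, adjusted p = 0.000445). H19, the imprinted noncoding RNA beside Igf2, was listed at 0 in shScram replicate 1, at 0.297 TPM in replicate 2 and at 5.09 and 5.22 TPM in shFTO (log2 fold change 2.43 ± 0.16, adjusted p = 4.82e-05), and is a host of Mir675. The receptor Igf2r and the adaptor Irs1 were not called, at 0.47 and 0.36. Of 16 measured Hox genes 4 were called higher and none lower. Hoxb2 was at 0.966 and 3.38 TPM against 13.9 and 11.8 TPM (log2 fold change 2.24 ± 0.33, adjusted p = 0.00250). Hoxb4 was at 1.93 and 2.85 TPM against 10.3 and 11.9 TPM (log2 fold change 1.85 ± 0.16, adjusted p = 0.000210).

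Of 12 prostaglandin genes 4 were called higher and none lower. The inducible cyclooxygenase Ptgs2 was at 9.01 and 9.03 TPM against 30.7 and 34.2 TPM (log2 fold change 1.74 ± 0.15, adjusted p = 0.000174). The prostacyclin synthase Ptgis was at 11.1 and 35.5 TPM against 95.2 and 88.8 TPM (log2 fold change 2.14 ± 0.39, adjusted p = 0.00608), and the constitutive cyclooxygenase Ptgs1 was called but not separated, at 1.14. In the retinoid list, Dhrs3, which reduces retinal to retinol, was at 1.54 and 1.33 TPM against 17.5 and 18.5 TPM (log2 fold change 2.96 ± 0.14, adjusted p = 1.36e-05). Cyp26b1, which breaks down retinoic acid, was called lower without being separated at -1.54, and 8 of 10 members were not called. Of 20 genes of glycolysis and hypoxia, 2 were called higher and 1 lower. The glucose transporter Slc2a1 was at 35.7 and 77.1 TPM against 159.7 and 155 TPM (log2 fold change 1.57 ± 0.28, adjusted p = 0.00566). The peptide hormone adrenomedullin, Adm, was at 12.3 and 19 TPM against 54.2 and 55.2 TPM (log2 fold change 1.77 ± 0.22, adjusted p = 0.00105). Ndrg1, also known as a hypoxia target, was lower, at 5.53 and 8.13 TPM against 1.47 and 1.46 TPM (log2 fold change -1.65 ± 0.19, adjusted p = 0.000855). The enzymes Pkm, Gapdh and Aldoa were not called.

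Cholesterol synthesis was the list with separated members in the lower direction only, among those with at least 2 such members. Of 19 genes 4 were called lower and none higher, all 4 against each control alone, and the median was -0.60, or -0.45 against shScram replicate 1 and -1.0 against replicate 2. At the later stages the median had the other sign, 0.47 at MCE and 0.84 at Diff. Idi1, the isopentenyl diphosphate isomerase, was at 278 and 186 TPM against 74.5 and 87.6 TPM (log2 fold change -1.48 ± 0.20, adjusted p = 0.00174). The sterol methyl oxidase Msmo1 was at 756 and 577 TPM against 248 and 277 TPM (log2 fold change -1.33 ± 0.16, adjusted p = 0.000819). Hmgcs1 and Nsdhl were called but not separated, at 448 and 369 TPM against 175 and 193 TPM and at 213 and 200.7 TPM against 100.2 and 98.1 TPM. Sqle, Fdps and Fdft1 did not pass the fold threshold, at -0.82, -0.77 and -0.56.

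The stress lists had few separated members, and of their higher calls Gadd45a alone held against each control library. Of 22 genes of the unfolded protein and amino acid response 5 were called higher, none of them separated, such as Atf5 at 56.0 and 443 TPM against 831 and 796 TPM. Psat1, an enzyme of serine synthesis, was the separated member and was lower, at 494 and 489 TPM against 155 and 159.8 TPM (log2 fold change -1.64 ± 0.10, adjusted p = 2.73e-05). Of 21 CDK inhibitor and p53 target genes 8 were called higher and 1 lower, and Gadd45a, a stress sensor that arrests growth, was the separated member, at 73.5 and 82.4 TPM against 285 and 292 TPM (log2 fold change 1.88 ± 0.13, adjusted p = 6.49e-05). Mdm2, the ubiquitin ligase that restrains p53, was high in every library, at 7656 and 5134 TPM against 4659.9 and 5267 TPM, and was not called. Of 12 heat shock genes 3 were called higher and of 16 Nrf2 antioxidant genes 2, with no member separated, the highest being Hspa1a at 1.61 and Osgin1 at 1.41. Hspa1a and Hspa1b are near-identical copies whose reads can be split between them.

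**Figure D4:**
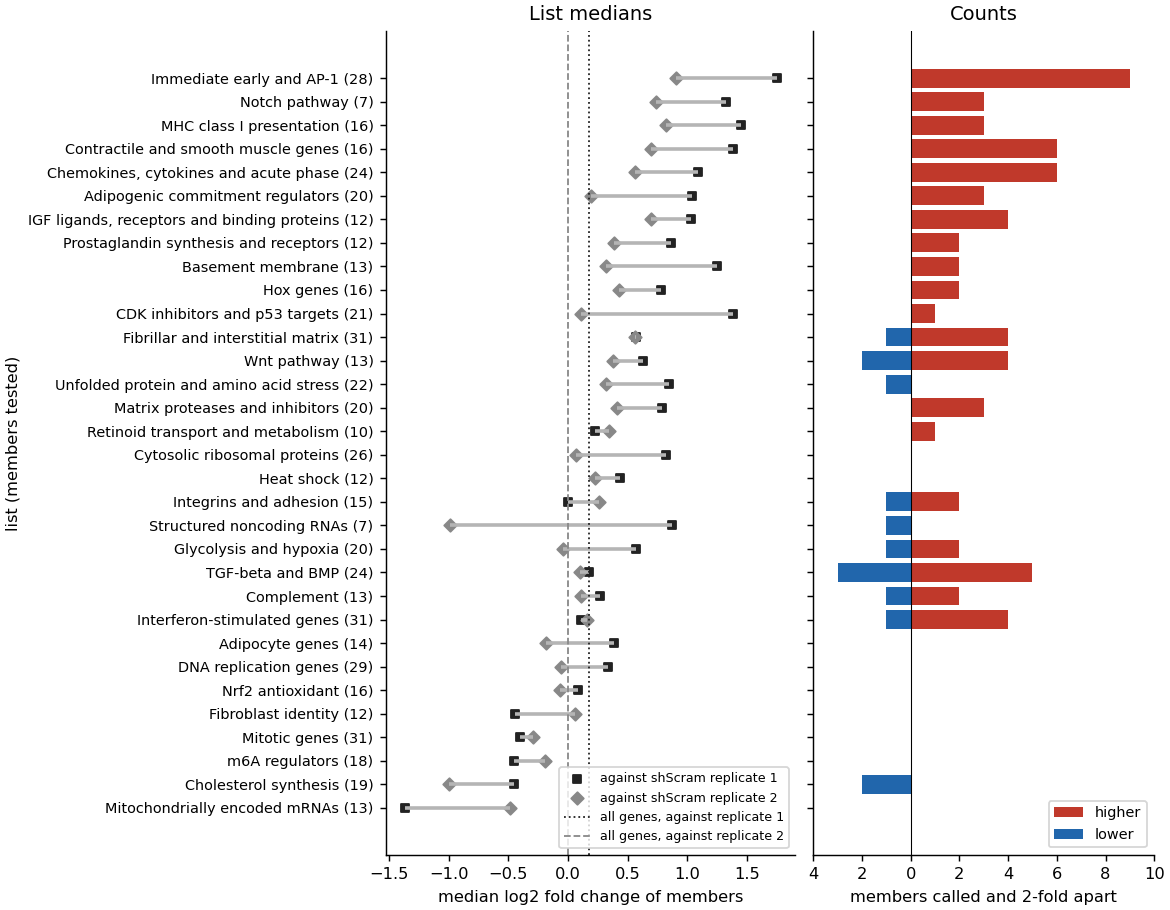
Left, median log2 fold change of the measured members of each gene list (members tested in brackets) against shScram replicate 1 (squares) and replicate 2 (diamonds), with dotted and dashed lines at the medians of all genes, 0.17 and -0.00. Right, number of members called and at least 2-fold apart in all 4 pairs of libraries, 9 for immediate early genes at the top and 2, lower, for cholesterol synthesis near the bottom.

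Few cell cycle genes were called. Of 31 mitotic genes 1, Cenpe, was called, lower at 39.4 and 18.8 TPM against 11 and 13.3 TPM, and it was not separated, and the median of -0.29 became 0.03 after the GC correction. Top2a was at 109.8 and 82.2 TPM against 66.3 and 75.2 TPM and Ccnb1 at 54.6 and 53.3 TPM against 43.7 and 44.2 TPM, with log2 fold changes of -0.42 ± 0.15 and -0.29 ± 0.12, and Ccnb1 was at 0.14 after the GC correction. Of 29 DNA replication genes 2 were called higher, E2f1 and Fen1, neither separated, and Pcna, the sliding clamp, was at 139 and 135 TPM against 137 and 138 TPM. Fibroblast identity genes had no member called of 12, with Vim at 3934 and 3544 TPM against 2411 and 2361 TPM and S100a4 at 1811 and 1941 TPM against 1089 and 956 TPM.

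Adipocyte genes were called in 1 case. Of 25 genes on the list 14 passed the filter, some of them abundant in both lines, such as the desaturase Scd1 at 187 and 210.1 TPM against 117 and 129.6 TPM. The 1 called, the lipid droplet protein Plin4, was lower at 14.6 and 30.4 TPM against 7.38 and 7.48 TPM and not separated. Pparg, the master regulator, was at 10.3 and 9.06 TPM against 9.62 and 9.46 TPM (log2 fold change -0.01 ± 0.14, adjusted p = 0.943). Its target Fabp4 was at 7.66 and 8.60 TPM against 9.01 and 6.86 TPM (log2 fold change -0.04 ± 0.16, adjusted p = 0.855), and the lines overlapped in both. Lpl, lipoprotein lipase, was at 174 and 112 TPM against 247 and 281 TPM, above both controls in both shFTO libraries but short of the fold threshold (log2 fold change 0.91 ± 0.20, adjusted p = 0.0113). Adipoq was listed at 0 in the 4 libraries.

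Regulators of commitment, which act ahead of these, had 7 of 20 members called higher and none lower, 3 of them separated: Klf2, Ccn5 and Zfp423, a zinc finger factor of preadipocyte identity at 0.414 and 0.519 TPM against 2.49 and 2.91 TPM (log2 fold change 1.33 ± 0.17, adjusted p = 0.00137). The early factor Cebpb was called but not separated, at 35.9 and 199.6 TPM against 346 and 367 TPM (log2 fold change 2.06 ± 0.59, adjusted p = 0.0311), with a log2 fold change of 3.28 against shScram replicate 1 and 0.83 against replicate 2. Cebpd was at 5.97 and 18.5 TPM against 37.0 and 40.3 TPM (log2 fold change 1.77 ± 0.37, adjusted p = 0.00996), at 2.51 and 1.03 against either control and also short of separation. Dlk1, the preadipocyte surface factor Pref-1, was at 627 and 1072 TPM against 1284 and 1272 TPM (log2 fold change 0.64 ± 0.22, adjusted p = 0.0509). The median of the list was 0.68, or 1.04 against replicate 1 and 0.19 against replicate 2. After the GC correction it was 0.17, against 0.13 over all genes tested.

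Among the 18 measured genes that the study follows by name, a list made from these and related samples and so no independent evidence of a direction, Cebpb was the only gene called. Reep3, a membrane-shaping protein of the endoplasmic reticulum, was at 47.6 and 29.9 TPM against 37.2 and 47.9 TPM (log2 fold change 0.16 ± 0.22, adjusted p = 0.575). The cyclin Ccna2 was at 66.7 and 52.7 TPM against 38.3 and 39.5 TPM (log2 fold change -0.60 ± 0.14, adjusted p = 0.0163). The spindle checkpoint kinase Bub1 was at 26.9 and 20.3 TPM against 15.0 and 15.0 TPM (log2 fold change -0.61 ± 0.16, adjusted p = 0.0207), each lower in both shFTO libraries but less than 2-fold, and after the GC correction Bub1 was at 0.083. Runx1t1, a co-repressor whose splicing FTO is known to affect, was at 22.9 and 15.7 TPM against 8.38 and 10.8 TPM (log2 fold change -0.92 ± 0.20, adjusted p = 0.0125). Apart from Fto, which is given above, none of 18 writers, erasers and readers of N6-methyladenosine was called. Their log2 fold changes ran from -0.85 to 0.84, with a median of -0.32 that became 0.08 after the GC correction. Alkbh5, the other known eraser, was at 37.2 and 56.9 TPM against 64.3 and 73.1 TPM (log2 fold change 0.56 ± 0.18, adjusted p = 0.0456). Wtap, a subunit of the writer complex, was at 92.1 and 65.5 TPM against 51.7 and 57.8 TPM (log2 fold change -0.50 ± 0.15, adjusted p = 0.0382).

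Ribosomal and mitochondrial genes were also compared with each control. Of 26 cytosolic ribosomal protein genes 2 were called higher and none was separated, and the median was 0.82 against shScram replicate 1 and 0.07 against replicate 2. Rps19 had 161 and 864 TPM in the control and 1501 and 1454 TPM in the knockdown libraries. All 13 mitochondrially encoded mRNAs had a negative log2 fold change, 3 were called lower and none was separated, and 12 lay lower in both shFTO than in both shScram libraries, as did 27.9% of all genes tested. Their median was -0.93, -1.37 against shScram replicate 1 and -0.48 against replicate 2, and was -0.13 after the GC correction and -0.91 at Diff. mt-Co1, a subunit of cytochrome c oxidase, was at 39713 and 14760.3 TPM against 9397 and 10881 TPM, with replicate 1 far from the other libraries. Together the mitochondrial genes took 14.5% and 7.34% of all TPM in shScram and 4.78% and 5.44% in shFTO. Of 7 measured structured noncoding RNAs Bc1 was the 1 called, and Malat1 was at 728 and 597 TPM against 409 and 502 TPM (log2 fold change -0.54 ± 0.17, adjusted p = 0.0373), or at 0.073 after the GC correction.

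The separated genes were then looked up in the later stages, whose libraries come from the same lines and also enter the spread behind every call, so the shares below are a description and not an independent check. Of the 428 higher genes 202 (47.2%) were called higher at MCE, where 4.40% of all genes tested were, and 216 (50.5%) at Diff, where 5.61% were. Of the 209 lower genes 93 (44.5%) were called lower at MCE, against 3.25% of all tested, and 95 (45.5%) at Diff, against 3.26%. At all 3 stages 229 of the 637 genes were called the same way, and 18 were called the opposite way at a later stage. Foxp2, at -5.71 in preadipocytes, was at -5.12 at MCE and -5.39 at Diff, and Slit3, at 4.17, was at 4.14 and 4.19. The knockdown of Fto was also alike, at -3.11, -3.02 and -3.15.

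The test of the difference between stages passed for 672 genes between preadipocytes and MCE (4.70% of all tested; limma interaction term, adjusted p under 0.05) and for 935 between preadipocytes and Diff (6.54%). Inhbb was at 3.80 in preadipocytes and 0.94 at MCE, Prr5 at 3.12 and 1.18, and Lrrc17 at -3.57 and -2.01, each with an interaction that passed. Saa3 rose further at Diff, from 3.81 to 5.83. Since the genes were chosen for their distance in preadipocytes, these interactions are given as values and no share of them is read. A treatment entry of 1 shScram Diff library names the knockdown against its title, and without that library the counts were 386 and 292. With shScram replicate 1 left out of the preadipocyte pair they were 2195 and 2628, with replicate 2 left out 8217 and 7847, without shFTO replicate 1 they were 210 and 336, and without shFTO replicate 2, 241 and 407.

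**Figure D5:**
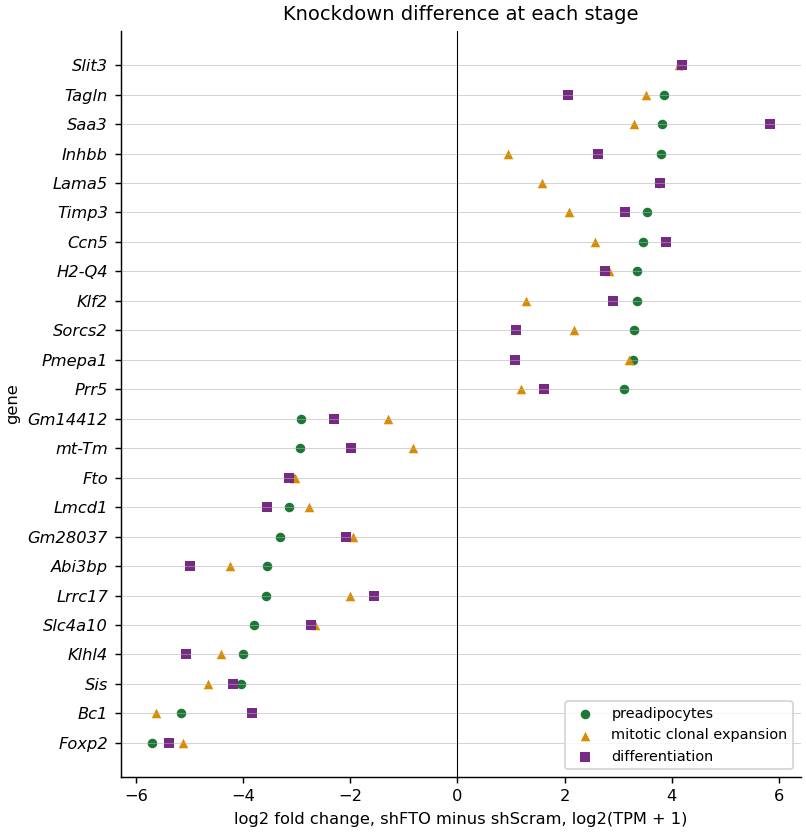
Log2 fold change of shFTO over shScram (horizontal axis, log2(TPM + 1) scale) in preadipocytes (circles), at mitotic clonal expansion (triangles) and at differentiation (squares) for the 12 highest and 12 lowest genes of the preadipocyte comparison (vertical axis). No gene of the 24 changes side between stages, and the spread between stages is wide for Inhbb, Saa3 and Pmepa1.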

How the data were processed

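RNA of shScram and shFTO 3T3-L1 cells was sequenced by the authors. The methods describe chemically fragmented total RNA for rhein-treated cells and do not give the library steps of the shScram and shFTO cells. Processing by the authors was adapter removal (Trim Galore 0.6.5), alignment (HISAT2 2.1.0, GRCm38, Ensembl 102) and quantification (StringTie 2.1.4). They deposited TPM per gene, 55487 genes in 12 libraries. The authors called differential genes from counts with DESeq2 1.30.1, and since the deposited values are TPM and not counts, limma 3.58.1 (R 4.3.3) was fitted here to log2(TPM + 1). Groups came from the sample titles. Genes with 1 TPM or more in 2 of the 4 preadipocyte libraries were tested. The fit had 1 mean per group over 12 libraries (6 residual degrees of freedom), a mean-variance trend, two-sided tests and Benjamini-Hochberg adjustment. The code was tested on simulated data. Annotation, GC content and overlaps came from GENCODE M21, which held 99.5% of the identifiers. A symbol on more than 1 row (12 symbols) was read at its more abundant row. Named genes were Fto, the 12 highest and 12 lowest genes that were called, separated and at a mean of 5 TPM or more, up to 5 separated, 2 called and 3 uncalled members of each of 38 lists, all genes the study follows by name, and the 4 genes at each end of the difference between the shScram libraries. Acta2 and Sparc are named in addition, for their abundance, and the counts of named genes leave them out. The comparison, the genes and the lists were chosen with earlier results of these data known. Other settings were another pseudocount, filter, scaling, spread estimate, GC correction, replicate block and set of libraries. Some items of the lists are not reported here.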

Additional observations from a re-analysis of the deposited data

Results flagged for a closer look

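The size of the knockdown difference was tested between preadipocytes and each later stage with limma interaction terms, and these results passed an adjusted p of 0.05. Over all genes tested, 672 differed from mitotic clonal expansion (MCE) and 935 from differentiation (Diff), and both counts depend strongly on which libraries are in the fit, as given above. Among the 24 genes furthest apart in preadipocytes, the following values are the log2 fold change in preadipocytes minus that at the later stage. That choice of genes favours differences that are larger in preadipocytes, so these are given as values only. Inhbb, an activin subunit, was higher by 2.86 than at MCE and by 1.17 than at Diff, and Prr5 by 1.94 and 1.5. Lama5 and Timp3 were higher by 2.19 and 1.45 than at MCE. Pmepa1 and Sorcs2 were higher by 2.21 and 2.20 than at Diff, and Saa3 was at -2.01, since its difference was wider at Diff. Lrrc17 was at -1.56 against MCE and -2.01 against Diff, and mt-Tm at -2.12 against MCE, the lower level in shFTO being more marked in preadipocytes. Abi3bp and Klhl4 were at 1.43 and 1.06 against Diff, where they were lower still in shFTO.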

How the results depend on the processing

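Counts in this paragraph are given as higher then lower in shFTO, the cause of a change was not tested unless the setting itself drops genes or libraries, and depth sets no limit that could be computed from TPM. Of 1362 and 635 called genes, no filter left 871 higher, a mean of 5 TPM left 405 lower, quantile normalization gave 988 lower, a GC correction 838 and 356, array weights 252 and 57, and the 4 preadipocyte libraries alone 0 and 0. Leaving out each preadipocyte library in turn gave 587 to 3416 and 306 to 1447. Of 430 and 210 genes 2-fold apart in every pair, a mean of 5 TPM left 268 and 122, a pseudocount of 0.1 gave 670 and 405, and leaving out each library 513 to 3165 and 289 to 1132. For 428 and 209 called and separated genes, these settings gave 267 and 122, a pseudocount of 0.1 gave 348 lower, array weights 160 and 52, the 4 libraries alone 0 and 0, and leaving out each library 442 to 3154 and 223 to 1132. The number of called list members, 163, was 76 with array weights, 0 with the 4 libraries alone and 103 to 264 leaving out each library. The interaction counts of 672 (MCE) and 935 (Diff) became 386 and 292 without shScram Diff replicate 1, 182 and 194 with array weights, 1176 and 1660 with the GC correction, and 210 to 8217 and 336 to 7847 without each preadipocyte library. Whether the replicate numbers pair the libraries is not given in the sources used here. The deviations of the preadipocyte pairs (r = -0.235) cannot tell, since both also followed GC content (Spearman's rho -0.74 in shScram and 0.35 in shFTO). A replicate block gave 1265 and 615 calls and 430 interactions with MCE. A crossed replicate block, added after seeing the data, gave 1309 and 633. Signs are compared between the main fit and 1 other setting at a time. They are given for named genes with an adjusted p under 0.05 in at least 1 of the fits compared, and genes short of it in both are left out. With the GC correction the sign turned for Bub1 (0.083), Ccng1 (0.35), Cdk18 (-0.42), Cebpa (-0.51), Hnrnpa2b1 (0.058), Hsp90b1 (0.41), Itgb1 (0.40), Malat1 (0.073), Mcm2 (-0.40), Mcm4 (0.13) and mt-Cytb (0.085). By the same rule, it also turned between the main fit and the fit against replicate 2 alone for the genes that follow. Their values against replicate 1 and replicate 2 alone were 1.56 and -0.42 for Cdkn2a, 0.69 and -0.35 for Flna, -1.84 and 1.31 for Gm20716, -0.68 and 0.41 for Hsp90b1, 1.32 and -0.70 for Igfbp6, 0.94 and -0.35 for Mmp14, 0.87 and -0.27 for Neat1, 1.33 and -0.42 for Phgdh, and -0.40 and 0.36 for Tpx2. All 88 named genes that were called and separated kept their sign in each setting in which they were tested, and kept the call in 63 with array weights, 83 with the GC correction, 80 and 81 without either shFTO library, and 0 with the 4 libraries alone.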

Other observations

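Short noncoding RNAs outside the lists were counted as well, and the genes in this paragraph were chosen after their values were seen. Of 22 measured mitochondrial tRNA genes 11 were called lower (against 4.44% of all tested) and none higher, and 5 were also separated (mt-Tl1, mt-Tm, mt-Tq, mt-Tr and mt-Tv). mt-Tl1, a leucine tRNA, was at 1442 and 907 TPM against 267 and 374 TPM, and mt-Tv, the valine tRNA, at 50.7 and 27.4 TPM against 4.68 and 5.23 TPM. The mitochondrial share of all TPM was itself higher in the shScram libraries, as given above, and its part in these values was not tested. The share called lower also varied with GC content, being 20.5% of genes under 40% GC and 0.318% of genes at 60% or more. The part of GC content in the counts of this paragraph was not tested. Of 37 small nuclear RNA genes 8 were called lower (21.6%, against the same 4.44%) and 1 higher. Gm22935 was at 48.1 and 13.5 TPM against 3.96 and 5.80 TPM, whereas Rnu1a1, a U1 gene, was at 0.432 TPM in shScram replicate 1, listed at 0 in replicate 2 and at 7.31 and 4.17 TPM in shFTO.

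Among 113 measured miRNA genes, 14 were called higher (12.4%, against 9.53% of all tested) and 4 lower (3.54%, against 4.44%). Of these, 10 and 2 were also separated (against 2.99% and 1.46% of all tested). The methods describe no miRNA protocol for these libraries. Mir145a was listed at 0 in shScram replicate 1, at 1.66 TPM in replicate 2 and at 6.67 and 7.83 TPM in shFTO, and Mir143, from the same cluster and known with it from smooth muscle, was listed at 0 in replicate 1, at 0.833 TPM in replicate 2 and at 3.16 and 3.48 TPM in shFTO. Mir351 was lower, at 5.65 and 3.97 TPM against 1.32 and 0.105 TPM. These levels are low, and 1 control library lists both Mir143 and Mir145a at 0, so no fold is given. Of 788 processed pseudogenes 79 were called lower (10.0%) and 31 higher (3.93%), with 20 and 7 separated, and their reads can be shared with parent genes.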
